A study of Mus musculus with 6 samples.

Results

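The genes described here are 39 DNA repair and replication checkpoint genes, chosen by name for their roles in homologous recombination, the Fanconi anaemia pathway, checkpoint signalling and mismatch repair. The list was drawn up with earlier results of these data known. A probe set, the group of array probes that reports a transcript, was kept if the array's annotation tied it to exactly 1 gene of this list. By this rule 37 of the 39 genes had a probe set, with 78 probe sets in all, out of 18194 genes measured on the array. Xrcc2, a recombination factor, and Rbbp8, a starter of DNA end resection, had no named probe set in the annotation and were not analysed here.

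The values came from an Affymetrix expression array hybridised with total RNA of myoblasts after 72 hours on fibronectin (3 samples) or on collagen I (3 samples). The source of all 6 samples was the hindlimb of C57BL/6JRj males aged 9 to 15 weeks. The medium of both groups, Ham's F-10, held 20% fetal serum, 2.5 ng/ml basic fibroblast growth factor and antibiotics. The comparison asks how the protein coat under cultured myoblasts, the dividing precursors of muscle fibres, bears on their gene expression. The labels do not state whether the samples came from separate animals or cultures, so the p-values measure the spread between these samples only, which may be technical.

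Homologous recombination repairs broken DNA by copying an intact sister strand. Broken ends are sensed and trimmed back, and the exposed single strand, with the help of the Brca2 and Palb2 complex, is paired with the matching sequence. The Fanconi pathway removes crosslinks between DNA strands, and the kinases Atr and Chek1 stop the cell cycle and protect replication forks when replication stalls. Many of these genes are transcribed mainly in S and G2 phase of cycling cells, and in muscle they are best known from dividing myoblasts, since differentiated fibres no longer replicate DNA.

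The 6 samples carried the myoblast label in their transcripts. All 7 myoblast markers examined were above the brightness filter of 2.33, the median log2 signal of a probe set, and Myod1 averaged 10.04 ± 0.04 on fibronectin and 10.10 ± 0.03 on collagen (SD, n = 3 each, as for all values below). Of the 7 markers Cdh15 rose on fibronectin (log2 change 0.24, limma adjusted p = 0.0108). Des (-0.23, adjusted p = 0.0194) and Ncam1 (-0.16, adjusted p = 0.0332) fell, and the other 4, Myod1 among them, did not pass. The endothelial markers lay below the filter in 5 of 5 cases, and of the macrophage and leukocyte markers Ptprc, Adgre1 and Lyz2 lay below it. The other macrophage markers lay above the filter. Cd68 averaged 3.36 ± 0.26 on fibronectin and 4.63 ± 0.18 on collagen and fell (log2 change -1.28, limma adjusted p = 0.000355). Cd14 also fell, with 3.67 ± 0.05 on fibronectin and 4.13 ± 0.09 on collagen (log2 change -0.46, limma adjusted p = 0.000765), and Csf1r averaged 3.19 on fibronectin and 3.22 on collagen. The median log2 signal of a sample over all probe sets lay between 2.30 and 2.34 on fibronectin and between 2.35 and 2.39 on collagen. The 3′ minus 5′ log2 signal of the Actb control probe sets, a measure of RNA integrity, lay between 0.57 and 0.65 on fibronectin and between 0.63 and 0.72 on collagen. That of the Gapdh controls lay between 0.33 and 0.39 on fibronectin and between 0.33 and 0.46 on collagen. The part of these differences in the results below was not tested.

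The 37 repair and checkpoint genes measured were on the whole higher in cells on fibronectin than on collagen, by modest amounts. Because earlier results were known when they were listed, their share beside that of all genes is a description only. Of the 37 genes measured, all were bright enough to test, 24 rose on fibronectin, and 0 fell by limma's moderated test, with p-values adjusted over all 10941 genes tested by the method of Benjamini and Hochberg. The share that rose was thus 64.9%, against 19.9% of all genes tested, and 20.2% of all genes tested fell, or 40.1% in either direction. The counts by role group below stand beside the same shares of all genes. Among 105 tested genes of other repair lists, described below, 33.3% rose. At an unadjusted p under 0.05, 29 of these genes were higher and 1, Mus81, was lower. The share of all genes past that looser threshold was not counted, so the 19.9% is no measure for it. The median log2 change of the 37 genes was 0.28, against 0.004 for all genes tested. Read on the brightest probe set of each gene, their changes ran from -0.19 for Mus81 to 0.55 for Chek1. On these probe sets none of the 37 genes rose by 1.5-fold or more, a size that 170 of the 2173 genes that rose reached. A second, dimmer probe set of Clspn had a log2 change of 0.63. All fold changes are differences of RMA log2 signals, a scale on which the changes of dim genes are compressed.

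In 29 of the 37 genes every fibronectin sample lay above every collagen sample, a separation found in 27.4% of all genes tested. Mus81 was the 1 gene whose fibronectin samples all lay below the collagen samples, against 25.9% of all genes tested, and the other 7 genes overlapped between coatings. The median over the 37 genes was 5.56, 5.60 and 5.54 on fibronectin, against 5.28, 5.21 and 5.45 on collagen. Collagen replicate 3 was therefore the nearest of the collagen samples to the fibronectin samples. It had the highest of the 3 collagen signals in 25 of the 37 genes. Among the genes that rose it was the highest in 18 of 24 (75%), compared with 42.3% of all genes that rose. In this bulk RNA a larger share of cells expressing a gene and more of its RNA per cell cannot be told apart.

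**Figure D1:**
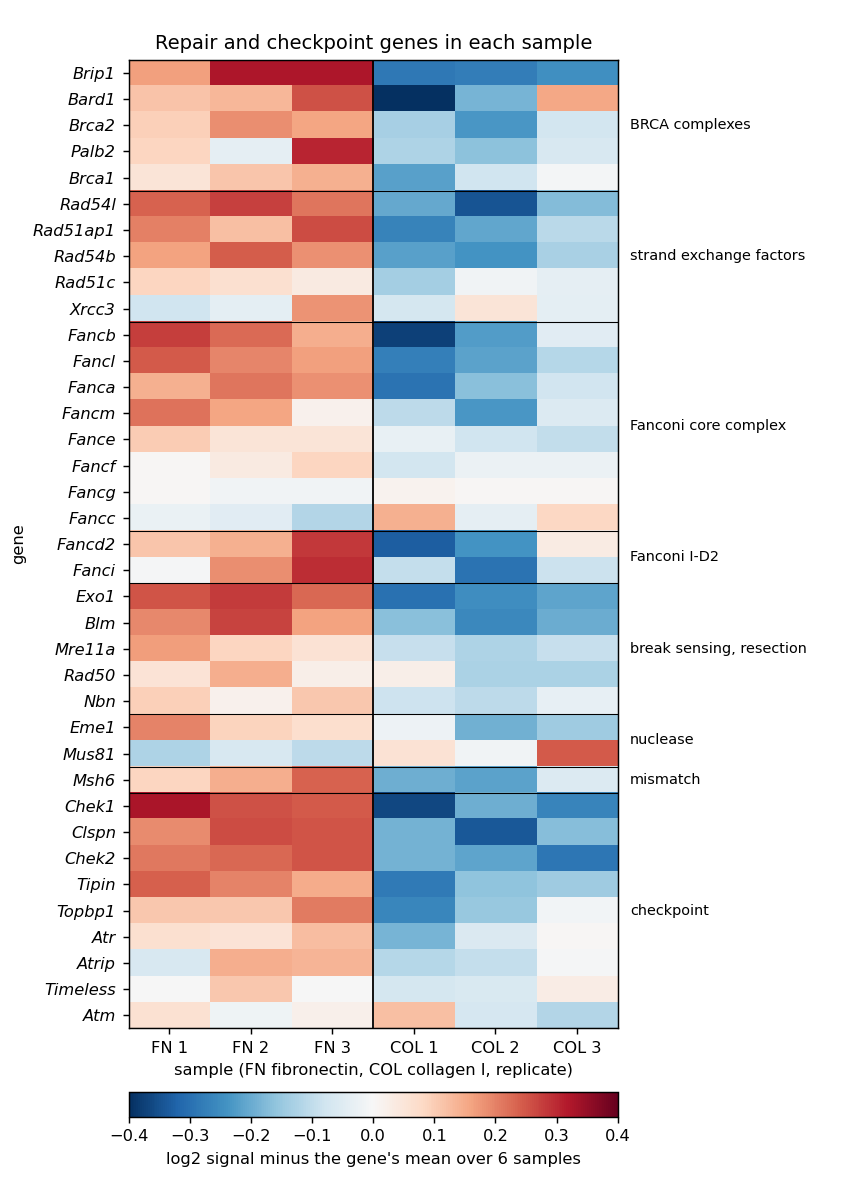
Log2 signal of each of the 37 genes in each sample, minus the gene's mean over the 6 samples, as a colour scale from -0.4 (blue) to 0.4 (red). Rows are genes grouped by role, and columns are the 3 fibronectin samples (FN, left) and the 3 collagen I samples (COL, right). Most rows are red on fibronectin and blue on collagen, while Mus81 and Fancc show the opposite and Atm, Timeless and Fancg show little contrast between coatings.

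The promoters of the 37 genes, where available, were searched for short words bound by cell cycle regulators, as a description. RefSeq start sites of build GRCm38.p6 gave windows of 300 bases, 250 before and 50 after the start, for 31 of the 37 genes. Exo1, Fancd2, Nbn, Rad50, Rad54b and Tipin were not in that table. The E2F-type words searched on both strands were TTTCCCGC or TTTGGCGC or TTCCCGCC or TTTGGCGG, of which neighbouring words can overlap. E2F proteins switch on S phase genes, and such a word stood in 11 of the 31 promoters, or 35.5%, against 8.15% of 8903 tested genes with a window and 3.69% of all 32851 windows in the table. The word CCAAT, bound by the factor NF-Y, stood in 19 of the 31 promoters (61.3%), against 43.1% of tested genes and 37.4% of all windows. The CHR-type words TTTGAA or TTCGAA, read by the DREAM complex at genes of late cell cycle phases, were in 3 of the 31 promoters (9.68%), against 15.9% of tested genes and 19.2% of all windows. A gene was counted if any of its windows held a word, whereas the shares of all windows count each window singly and include genes not tested. The shares of genes and of windows are therefore unlike measures. These matches are descriptions of the letters in the windows.

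Genes that rose and genes that did not pass were both found with and without an E2F-type word. Of the 11 genes with an E2F-type word 8 rose, with a median log2 change of 0.33, and of the 20 without it 11 rose, with a median of 0.21. Brca2, Fancb, Fancm, Chek1, Chek2, Clspn, Msh6 and Rad51ap1 had the word and rose. Bard1, Fancg and Rad51c had it and did not pass the test.

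The promoters of the 3 genes that rose with the smallest p among those with a window are printed here with that of Clspn, the next by p among genes with an E2F-type word, and that of Fancg, which held such a word and had a log2 change of -0.01. Clspn and Fancg were picked after their values were seen. Each is written 5′ to 3′ on the strand of its gene, and capitals mark the E2F-type words and the CCAAT words, which read ATTGG when they lie on the opposite strand. The Chek2 window is chr5:110839733-110840032 on the plus strand, that of Chek1 chr9:36726609-36726908 on the minus strand and that of Brip1 chr11:86201144-86201443 on the minus strand. The windows of Clspn and Fancg are chr4:126556730-126557029 on the plus strand and chr4:43010252-43010551 on the minus strand.
Chek2: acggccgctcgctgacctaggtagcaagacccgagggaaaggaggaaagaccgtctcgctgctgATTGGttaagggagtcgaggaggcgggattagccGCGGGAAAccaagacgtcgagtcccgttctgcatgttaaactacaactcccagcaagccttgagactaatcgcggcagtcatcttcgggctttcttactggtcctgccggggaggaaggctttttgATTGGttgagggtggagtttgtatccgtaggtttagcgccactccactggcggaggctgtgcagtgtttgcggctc
Chek1: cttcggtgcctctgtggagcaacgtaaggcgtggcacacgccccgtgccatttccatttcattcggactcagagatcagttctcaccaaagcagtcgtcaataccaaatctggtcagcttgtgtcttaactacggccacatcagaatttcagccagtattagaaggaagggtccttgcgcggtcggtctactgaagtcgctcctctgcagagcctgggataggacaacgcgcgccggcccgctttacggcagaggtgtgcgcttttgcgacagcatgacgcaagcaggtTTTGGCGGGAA
Brip1: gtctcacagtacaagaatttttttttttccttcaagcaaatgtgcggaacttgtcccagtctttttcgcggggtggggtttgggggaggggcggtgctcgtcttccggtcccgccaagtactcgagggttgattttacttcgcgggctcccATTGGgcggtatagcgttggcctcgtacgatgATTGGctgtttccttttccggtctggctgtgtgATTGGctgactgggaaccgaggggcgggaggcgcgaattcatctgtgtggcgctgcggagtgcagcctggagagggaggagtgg
Clspn: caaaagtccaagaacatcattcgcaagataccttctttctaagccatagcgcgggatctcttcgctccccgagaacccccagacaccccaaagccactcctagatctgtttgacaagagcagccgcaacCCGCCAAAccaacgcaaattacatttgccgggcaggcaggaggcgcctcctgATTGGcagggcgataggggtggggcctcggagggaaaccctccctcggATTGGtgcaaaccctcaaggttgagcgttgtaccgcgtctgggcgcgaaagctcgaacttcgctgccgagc
Fancg: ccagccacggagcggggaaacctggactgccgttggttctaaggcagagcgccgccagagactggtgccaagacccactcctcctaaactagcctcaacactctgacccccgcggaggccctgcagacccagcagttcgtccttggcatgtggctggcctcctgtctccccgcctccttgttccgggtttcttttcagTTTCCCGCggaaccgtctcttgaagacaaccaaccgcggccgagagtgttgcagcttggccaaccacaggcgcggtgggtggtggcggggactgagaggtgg

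In the Chek2 promoter the E2F-type word began 152 bases before the start site. In Clspn it began 121 bases before the start, in Fancg 52 bases before it, and in Chek1 at base 40 after the start, where 2 words overlapped. Brip1 held 3 CCAAT words, 99, 67 and 34 bases before the start, and no E2F-type word of the letters searched.

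The BRCA complexes prepare the break for repair by recombination. Of their 5 genes 3 rose, with a median log2 change of 0.29 over the 5. Brip1 (Entrez gene 237911), the Fanconi helicase that binds Brca1, had log2 signals of 3.66, 3.82 and 3.82 on fibronectin, against 3.21, 3.22 and 3.25 on collagen. Its groups lay far apart relative to their spread, although the gene was dim, and it rose 1.46-fold (log2 change 0.54, SE 0.054, limma adjusted p = 0.00025). Brca2, which acts on the single-stranded DNA at breaks, had signals of 5.85, 5.94 and 5.91 on fibronectin, against 5.62, 5.52 and 5.68 on collagen, and rose 1.22-fold (adjusted p = 0.00442).

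Brca1, the ubiquitin ligase that steers breaks into recombination, rose by less, 1.15-fold. Its signals were 6.76, 6.82 and 6.85 on fibronectin, against 6.49, 6.63 and 6.70 on collagen, so that the groups lay close together without overlap. The adjusted p of 0.0303 for Brca1 was lost when fibronectin replicate 2 or 3 or collagen replicate 1 or 2 was left out, with adjusted p between 0.0545 and 0.0937. Bard1, the obligate partner of Brca1, had signals of 3.25, 3.27 and 3.39 on fibronectin, against 2.67, 2.95 and 3.29 on collagen. The collagen samples of Bard1 were spread over a wide range (SD 0.31) and the highest of them reached into the fibronectin range. Its log2 change of 0.33 (SE 0.138) did not pass (adjusted p = 0.0897), and without collagen replicate 3 it was 0.49 with an adjusted p of 0.00821. Palb2, which bridges Brca1 and Brca2, had a log2 change of 0.24 (adjusted p = 0.0542) with separate groups, and it passed without fibronectin replicate 2 (0.0219). It also passed after quantile normalisation again (0.0442), with samples centred on their medians (0.0269) and with a replicate block (0.0262). With a robust variance model that follows intensity Palb2 passed too (0.0295), but not under the other alternatives that tested it.

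Strand exchange factors help the broken strand invade the intact copy. Of the 5 measured 3 rose, and the median log2 change was 0.39. Rad54l, a motor protein that remodels DNA during strand exchange, had signals of 5.56, 5.60 and 5.54 on fibronectin, against 5.12, 4.98 and 5.15 on collagen, and rose 1.39-fold (SE 0.056, adjusted p = 0.000516). Its relative Rad54b had signals of 4.80, 4.88 and 4.82 on fibronectin, against 4.42, 4.40 and 4.51 on collagen, a 1.31-fold rise. Both Rad54 genes thus had a gap between coatings several times the spread within a coating. Rad51ap1, which stimulates the formation of joint molecules, had signals of 7.41, 7.33 and 7.47 on fibronectin, against 6.94, 7.0 and 7.10 on collagen, and rose 1.31-fold (adjusted p = 0.00165). Rad51c and Xrcc3, which act together in recombination, did not pass. For Rad51c the log2 change was 0.12 (adjusted p = 0.0808) and Xrcc3 one of 0.04 (adjusted p = 0.689).

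**Figure D2:**
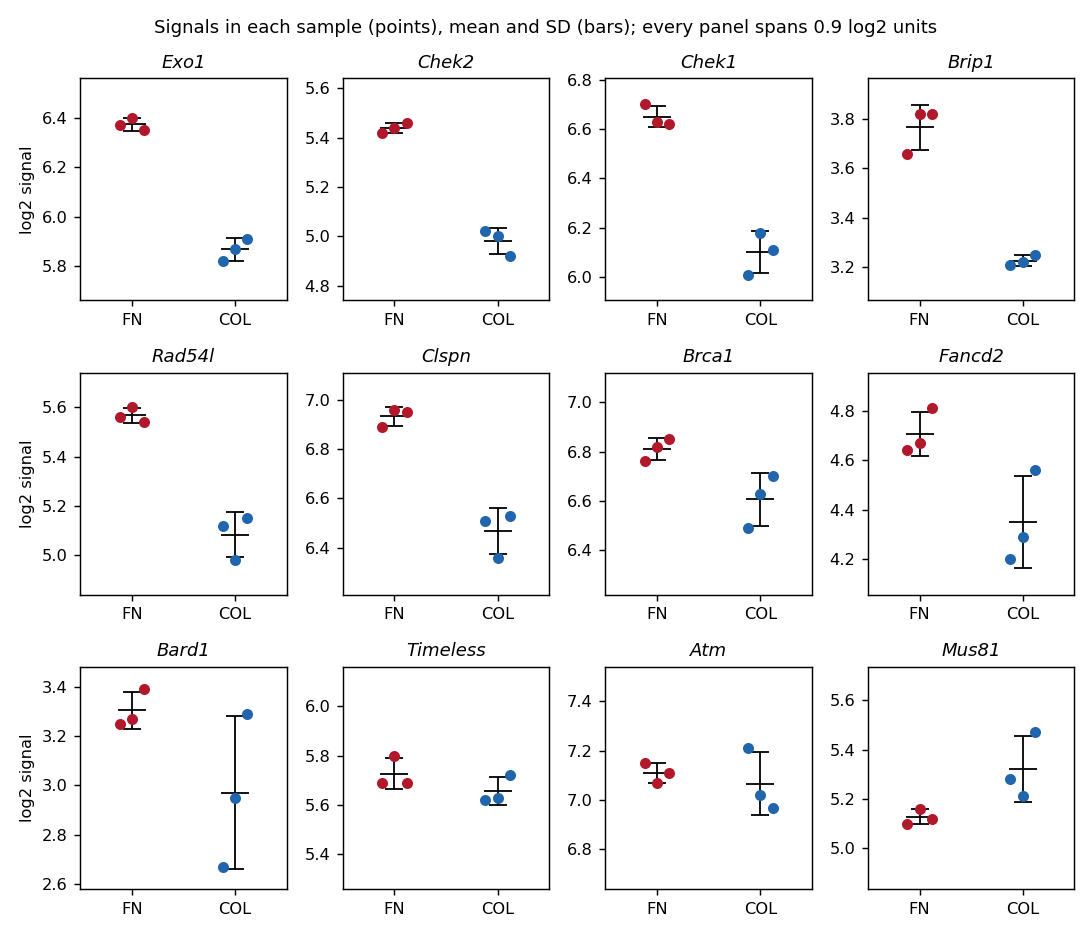
Log2 signals of 12 genes in the 3 fibronectin samples (FN, red, left) and the 3 collagen I samples (COL, blue, right) of each panel, with the mean (horizontal mark) and SD (bars). All panels span the same 0.9 log2 units, and the 12 genes, picked after their values were seen, run from the clearest separations (Exo1, Chek2, Chek1, Brip1) to Bard1, Timeless and Atm, whose groups overlap, and Mus81, which lies lower on fibronectin.

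The Fanconi core complex is a ubiquitin ligase that marks crosslinks for repair. Of its 8 genes 5 rose, and the log2 changes ran from -0.13 to 0.43 with a median of 0.20. Fancl, the catalytic subunit, had signals of 5.86, 5.81 and 5.78 on fibronectin, against 5.34, 5.40 and 5.50 on collagen, and rose 1.32-fold (SE 0.054, adjusted p = 0.00092). Averaged with a second probe set that lay below the filter, its log2 change was 0.09 and did not pass (adjusted p = 0.3). Fanca, a scaffold of the complex, had 5.40, 5.47 and 5.44 on fibronectin, against 4.96, 5.09 and 5.18 on collagen, and rose 1.28-fold. In Fancl and Fanca collagen replicate 3 was the highest of the collagen samples and still lay below all fibronectin samples. Fancb, the X-linked partner of Fancl, had 5.29, 5.24 and 5.16 on fibronectin, against 4.64, 4.79 and 4.97 on collagen, a 1.35-fold rise with a wider SE (0.083) and an adjusted p of 0.00502.

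Fancm, the DNA-translocating anchor of the core complex, rose 1.2-fold (adjusted p = 0.0199) on its brightest probe set. The call was lost without fibronectin replicate 1 (0.0666), fibronectin replicate 2 (0.0589) or collagen replicate 2 (0.0647). Over all 3 of its probe sets, 2 of them below the filter, its mean change was -0.03. Fance, the link to the I-D2 complex, rose 1.10-fold (adjusted p = 0.0414), a call that was lost without any 1 sample other than collagen replicate 1. The remaining core genes did not pass. Fancf had a log2 change of 0.09 with separate groups, Fancc one of -0.13 (adjusted p = 0.12) and Fancg one of -0.01 (adjusted p = 0.807). Fancg was the dimmest of the 37 genes, with a mean signal of 2.70. The sign of Fancg depended on the scaling, with 0.0039 after a second quantile normalisation and 0.04 with samples centred on their medians.

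Fancd2 and Fanci form the clamp that the core complex marks with ubiquitin, and both rose. Fancd2 had signals of 4.64, 4.67 and 4.81 on fibronectin, against 4.20, 4.29 and 4.56 on collagen, and its log2 change was 0.36 (SE 0.095, adjusted p = 0.0197). Fanci had 4.73, 4.92 and 5.03 on fibronectin, against 4.64, 4.44 and 4.65 on collagen, a log2 change of 0.32 with an adjusted p of 0.0223 (SE 0.087). Averaged with a second, very dim probe set, Fanci had a log2 change of 0.17 and did not pass (adjusted p = 0.152). The spread of both genes between samples was larger than that of the other genes that rose, and in both genes fibronectin replicate 3 was the highest sample. Without fibronectin replicate 3 neither passed (adjusted p = 0.0674 for Fancd2 and 0.0702 for Fanci). Leaving out collagen replicate 2 had the same effect (0.067 and 0.0718), as did collagen replicate 1 for Fancd2 (0.0566) and fibronectin replicate 2 for Fanci (0.0605).

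Break sensing and end resection held the gene with the smallest p of all 37. Of the 5 genes measured 4 rose, with a median log2 change of 0.21. Exo1 (Entrez gene 26909), a nuclease that trims DNA ends over long stretches and also excises mismatches, had signals of 6.37, 6.4 and 6.35 on fibronectin, against 5.82, 5.87 and 5.91 on collagen. The 2 coatings were separated by many times the spread within them, and Exo1 rose 1.42-fold (log2 change 0.51, SE 0.045, adjusted p = 0.000151). Blm, the helicase that unwinds ends for resection and dissolves joint molecules, had 4.98, 5.06 and 4.95 on fibronectin, against 4.62, 4.53 and 4.59 on collagen, and rose 1.34-fold (adjusted p = 0.000516).

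The complex of Mre11a, Rad50 and Nbn, which binds broken ends first, had smaller log2 changes than Exo1 and Blm, a difference that was not tested. Mre11a, the nuclease subunit, rose 1.16-fold (adjusted p = 0.00859). Nbn, which recruits Atm, rose 1.11-fold with an adjusted p of 0.0394 that was lost without fibronectin replicate 1 (0.113), fibronectin replicate 3 (0.119), collagen replicate 1 (0.0709) or collagen replicate 2 (0.113). The log2 change of Rad50, the tether of the complex, was 0.15 (adjusted p = 0.074, SE 0.06) with separate groups, and passed without collagen replicate 1 (0.0237). Rad50 also passed with the 75th percentile filter (0.034), with samples centred on their medians (0.0225) and with array weights (0.022). With a robust variance model that follows intensity it passed too (0.0359), but not under the other alternatives.

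The nuclease of Mus81 and Eme1 cuts branched recombination and replication structures, and its subunits stood on opposite sides of 0. Eme1, the partner subunit, had signals of 5.79, 5.68 and 5.66 on fibronectin, against 5.57, 5.40 and 5.45 on collagen, and rose 1.18-fold (SE 0.062, adjusted p = 0.0178). That call was lost without fibronectin replicate 1 (0.0604), collagen replicate 2 (0.0625) or collagen replicate 3 (0.0519). Mus81, the catalytic subunit, had signals of 5.10, 5.16 and 5.12 on fibronectin, against 5.28, 5.21 and 5.47 on collagen. Its log2 change of -0.19 (SE 0.069) did not pass (adjusted p = 0.0604), but it passed without collagen replicate 2 (log2 change -0.25, adjusted p = 0.0335). Msh6, which recognises mismatched bases, had 6.08, 6.14 and 6.23 on fibronectin, against 5.80, 5.78 and 5.94 on collagen, and rose 1.24-fold (adjusted p = 0.00553).

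Among checkpoint genes the effector kinases and several mediators rose, while the apical kinases did not pass; that contrast itself was not tested. Of the 9 genes 5 rose, with a median log2 change of 0.28. Chek1 (Entrez gene 12649), the kinase through which Atr restrains the cell cycle, had signals of 6.70, 6.63 and 6.62 on fibronectin, against 6.01, 6.18 and 6.11 on collagen. On the brightest probe sets Chek1 had the largest change of the 37 genes, 1.47-fold (log2 change 0.55, SE 0.055, adjusted p = 0.00025). With all probe sets of a gene averaged, its log2 change was 0.36 and that of Clspn was 0.55. Chek2 (Entrez gene 50883), the kinase downstream of Atm, had signals of 5.42, 5.44 and 5.46 on fibronectin, against 5.02, 5.0 and 4.92 on collagen, and rose 1.37-fold (log2 change 0.46, SE 0.045, adjusted p = 0.000233). Fibronectin samples of both kinases lay close together and well above every collagen sample.

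Clspn, the adaptor that presents Chek1 to Atr, had signals of 6.89, 6.96 and 6.95 on fibronectin, against 6.51, 6.36 and 6.53 on collagen, and rose 1.38-fold (adjusted p = 0.000604). Tipin, a fork protection factor, was the brightest of the 37 genes, with 9.18, 9.14 and 9.09 on fibronectin, against 8.66, 8.78 and 8.80 on collagen, and rose 1.31-fold (adjusted p = 0.00111). Topbp1, the activator of Atr, rose 1.22-fold (adjusted p = 0.0139), and without fibronectin replicate 3 its adjusted p was 0.0508. The proteins of Tipin and Timeless act as a pair at the fork, yet Timeless had signals of 5.69, 5.80 and 5.69 on fibronectin, against 5.62, 5.63 and 5.72 on collagen. These overlapped, and its log2 change of 0.07 (SE 0.053) did not pass (adjusted p = 0.314).

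The log2 change of Atr was 0.16 (adjusted p = 0.06, SE 0.059) with separate groups, and Atrip, its partner, had one of 0.14 (adjusted p = 0.141). Atm had signals of 7.15, 7.07 and 7.11 on fibronectin, against 7.21, 7.02 and 6.97 on collagen, with the highest and the lowest samples both on collagen (log2 change 0.04, SE 0.067, adjusted p = 0.631). Atr passed without collagen replicate 3 (0.0408), and Atrip without fibronectin replicate 1 (0.0306). Atr also passed with the 75th percentile filter (0.0257), with samples centred on their medians (0.0328) and with a robust variance model that follows intensity (0.043). It did not pass under the other alternatives, and with its probe sets averaged its log2 change was 0.04.

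**Figure D3:**
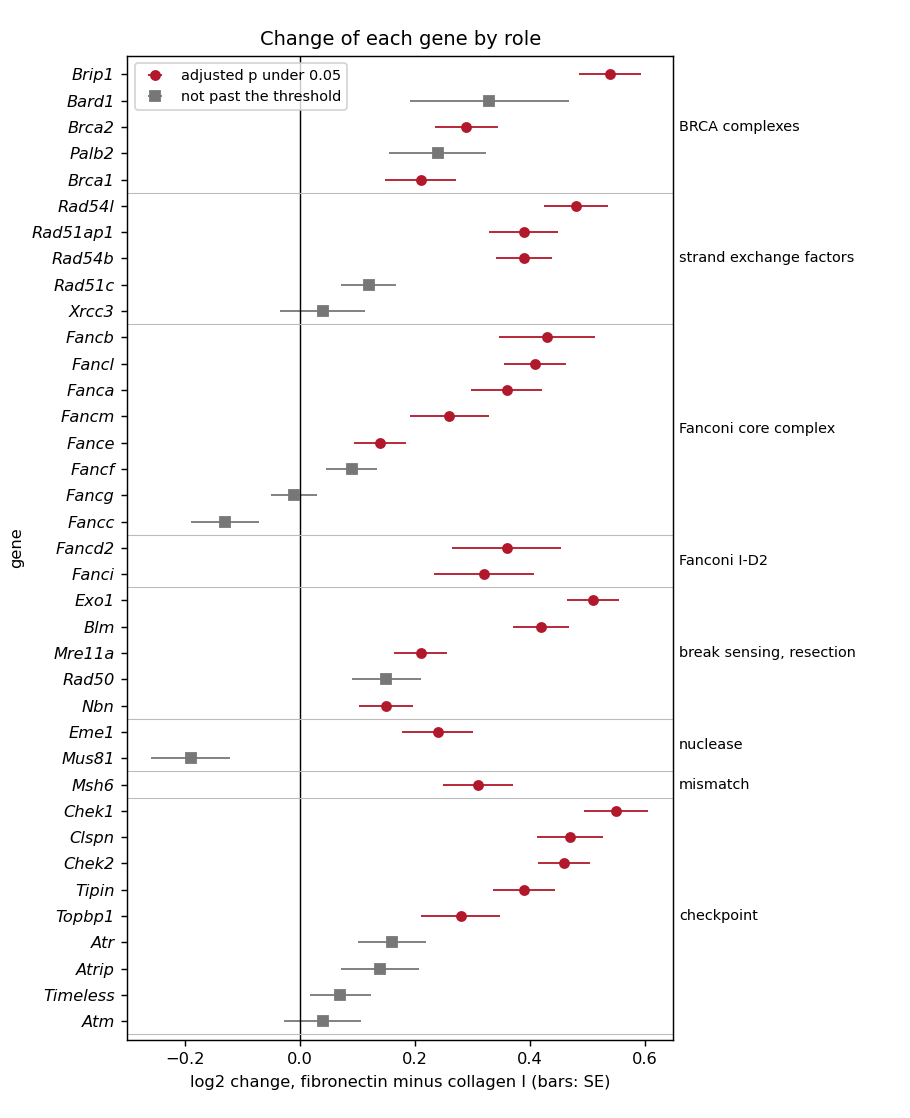
Log2 change (fibronectin minus collagen I) of each of the 37 genes, grouped by role, with bars of 1 SE. Red circles mark the 24 genes past the adjusted p of 0.05 and grey squares the 13 that did not pass, which include Atm, Atr, Atrip and Timeless of the checkpoint group and Mus81 at -0.19.

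Several genes were measured by more than 1 probe set, which gives a second reading of the same RNA. Of the 78 probe sets 60 passed the brightness filter, and in a fit of all 22496 bright probe sets 35 of the 60 rose and 0 fell, against 16.2% and 15.8% of all probe sets in that fit. At gene level 22 of the 24 rises held in that fit, and those of Fance and Nbn did not (adjusted p = 0.0658 and 0.0618). Of 18 genes with several bright probe sets, 7 rose on each of them, 4 on some and 7 on none. The genes that rose on each were Chek1, Clspn, Exo1, Fancd2, Rad51ap1, Rad54l and Topbp1.

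Rad51ap1 had log2 changes of 0.39, 0.44, 0.42 and 0.32 on its 4 probe sets, and Chek1 had 0.55, 0.49 and 0.40 on its 3 bright probe sets. The readings of Topbp1 differed more, with 0.28 on the brightest and 0.52 on the other. Those of Clspn were 0.47 on the brightest and 0.63 on the other. Brca1 had 0.21 and 0.28 on probe sets that passed and 0.36 on a dimmer one that did not (adjusted p = 0.0812). Atr, Fancc, Xrcc3 and Atm had readings on either side of 0, and in none of them did a probe set pass. Atm gave 0.04 and -0.03, and Timeless gave 0.07 and 0.02. The readings of Mus81 were -0.19 on the brightest probe set and -0.10 on the other, where the groups overlapped (adjusted p = 0.352). The brightest probe sets of Chek1, Mus81 and Xrcc3 are of types whose probes can bind transcripts of more than 1 gene. Dimmer probe sets of Rad51ap1, Rad54l and Fance that rose are also of these types. The other bright Chek1 probe sets do not have such a mark.

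**Figure D4:**
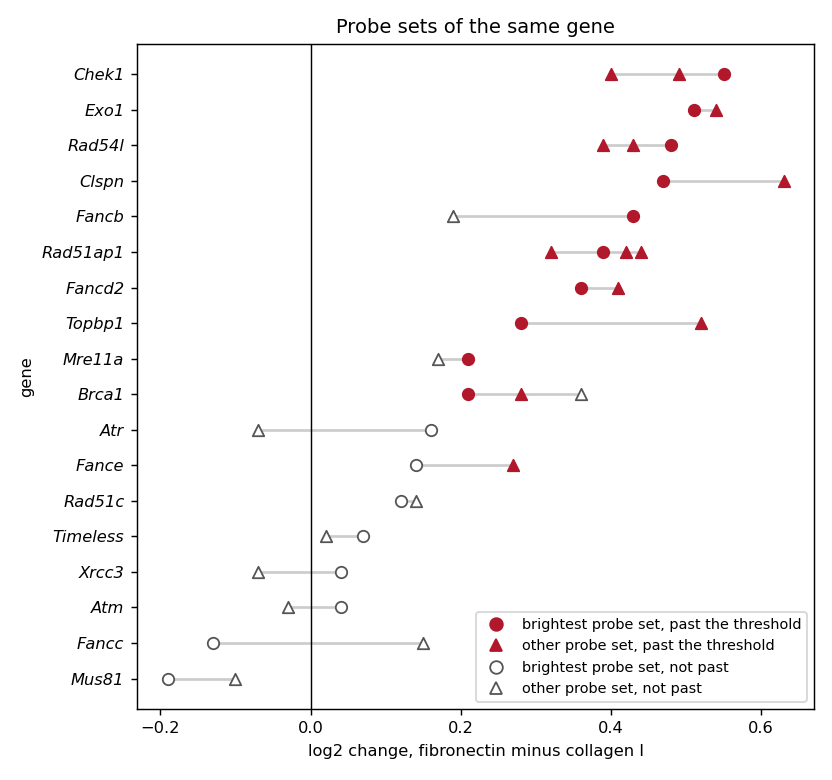
Log2 change (fibronectin minus collagen I) of each bright probe set of the 18 genes with more than 1, with the brightest as a circle and the others as triangles, filled red where the adjusted p over all bright probe sets was under 0.05. Chek1, Exo1, Rad54l, Clspn and Rad51ap1 have all readings above 0.3, while Timeless, Xrcc3 and Atm have theirs around 0.

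The share of genes that rose was given by brightness as well. Among the 22 genes with a mean signal at or above the 75th percentile of 5.18, 16 rose (72.7%), against 22.6% of all genes in that class. Among the 15 dimmer genes 8 rose (53.3%), against 14.9% of all genes in that class. The median log2 changes of the brighter and the dimmer genes were 0.29 and 0.26, and their median SEs were 0.056 and 0.068.

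Other repair genes were taken from lists of pathway members, and their difference from the 37 genes was not tested. Of 105 tested genes of these lists 35 rose (33.3%) and 6 fell (5.71%), and their median log2 change was 0.09, against 19.9% and 20.2% of all genes tested. Of 28 further genes of homologous recombination and the Fanconi pathway 6 rose (21.4%, near the share of all genes) and 0 fell by limma's test, also 0 at an unadjusted p under 0.05 (median 0.06). The 6 included the helicase Mcm8 at 0.50, the junction-cutting nuclease Gen1 at 0.40 and Usp1, which removes ubiquitin from Fancd2, at 0.30. Of the same 28 genes, those that did not pass included Ube2t, the Fanconi ubiquitin-conjugating enzyme, at 0.08, and Slx4, a nuclease scaffold, at -0.08. Of 22 further checkpoint and signalling genes 12 rose (54.5%) and 1 fell (4.55%), with a median of 0.22. Atad5, which unloads the replication clamp, rose 1.46-fold, and Cdc25c, a phosphatase that starts mitosis, also rose 1.46-fold. Wee1, the kinase that holds back mitosis, was the 1 that fell, with a log2 change of -0.29 (adjusted p = 0.00144).

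Of 16 base excision repair genes 7 rose (43.8%, against 19.9% of all genes tested) and 0 fell, likewise 0 at an unadjusted p under 0.05. The uracil glycosylase Ung led at 1.47-fold, with Tdp1 at 0.33 and the scaffold Xrcc1 at 0.24 on the log2 scale. Of 3 tested mismatch repair genes other than Msh6, 2 rose, Pms1 at 0.46 and Pms2 at 0.23. Nucleotide excision repair genes had 3 of 17 members higher (17.6%, near the share of all genes) and 1 lower, with Ercc5 at 0.32, Ercc8 at 0.31 and the damage sensor Ddb2 at -0.26. End joining genes, which repair breaks without a template in any cell cycle phase, had 1 of 8 higher and 2 lower (median -0.06). These shares of 12.5% and 25% stand beside 19.9% and 20.2% of all genes tested, and 8 genes are few. Xrcc6 and Xrcc5, the subunits of the Ku end-binding dimer, had log2 changes of 0.29 and -0.23 and passed in opposite directions, and the kinase Prkdc fell by 0.29. Among 11 genes of translesion synthesis 4 rose (36.4%) and 2 fell (18.2%). They included the ubiquitin ligase Rad18, which fell by 0.38, and the polymerase Polk and Mad2l2, a subunit of polymerase zeta, which each rose by 0.31.

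Targets of p53 are switched on by DNA damage. Of 18 tested targets 5 rose (27.8%) and 3 fell (16.7%), shares near those of all genes tested, with a median log2 change of 0.07. Gadd45a fell by 0.75, whereas Plk2 rose by 0.67 and Ei24 by 0.50. Cdkn1a, the cell cycle inhibitor that is the best known target, averaged 10.18 ± 0.03 on fibronectin and 10.17 ± 0.03 on collagen and did not pass (adjusted p = 0.821).

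Genes of the cell cycle itself moved in the same direction as the repair genes. Of 19 tested genes of replication and mitosis 12 rose (63.2%) and 0 fell, against 19.9% and 20.2% of all genes tested. At an unadjusted p under 0.05 the count of falls was also 0. Their median log2 change was 0.31, beside 0.28 for the repair and checkpoint genes. The smallest p-values were those of the mitotic kinase Aurka, with a log2 change of 0.60, the cyclin Ccne2 at 0.54 and Ccna2. Mki67, a marker of cycling cells, had signals of 8.92, 9.08 and 9.11 on fibronectin, against 8.6, 8.57 and 8.59 on collagen. Ccna2, a cyclin of S and G2 phase, rose 1.40-fold. The replication factors Mcm5, Mcm7, Gins1 and Cdc45 rose, with log2 changes between 0.16 and 0.31. The 7 of the 19 genes that did not pass were Pcna, Mcm2, Mcm3, Mcm4, Mcm6, Rrm2 and Tyms. Their log2 changes lay between 0.03 and 0.33. The signals of the 19 genes, summed on the linear scale, lay between 10631 and 10744 on fibronectin and between 9108 and 9376 on collagen. Of 19 E2F, Rb family and DREAM genes 10 rose (52.6%) and 0 fell (1, the DREAM subunit Lin37 at -0.15, at an unadjusted p under 0.05). Those that rose included the repressor E2f7 at 0.51, Rb1 at 0.32 and the E2F partner Tfdp1 at 0.30, while the activator E2f1 had a log2 change of 0.02 (adjusted p = 0.828).

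Markers of differentiated muscle moved the other way. All 6 that could be tested fell, led by smallest p by the troponins Tnni1 (log2 change -1.56) and Tnnt2 (-0.80) and the skeletal actin Acta1 (-1.53). Myog, the regulator of differentiation, averaged 3.98 ± 0.20 on fibronectin and 4.81 ± 0.18 on collagen and also fell. The linear signals of the 7 markers summed to between 183 and 211 on fibronectin and between 438 and 457 on collagen. The macrophage and leukocyte markers, 3 of 6 above the filter, summed to between 37.1 and 43.1 on fibronectin and between 54.4 and 62.6 on collagen. Fibroblast markers, 2 of 6 above the filter, summed to between 731 and 784 on fibronectin and between 620 and 683 on collagen, a sum made up mainly of Col3a1. Col3a1 rose (log2 change 0.21) and Thy1, the other marker above the filter, fell (-0.32, adjusted p = 0.0399). Endothelial markers summed to between 9.87 and 11.1 on fibronectin and between 11.9 and 12.5 on collagen. The part of these cell states in the changes of repair genes was not tested.

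**Figure D5:**
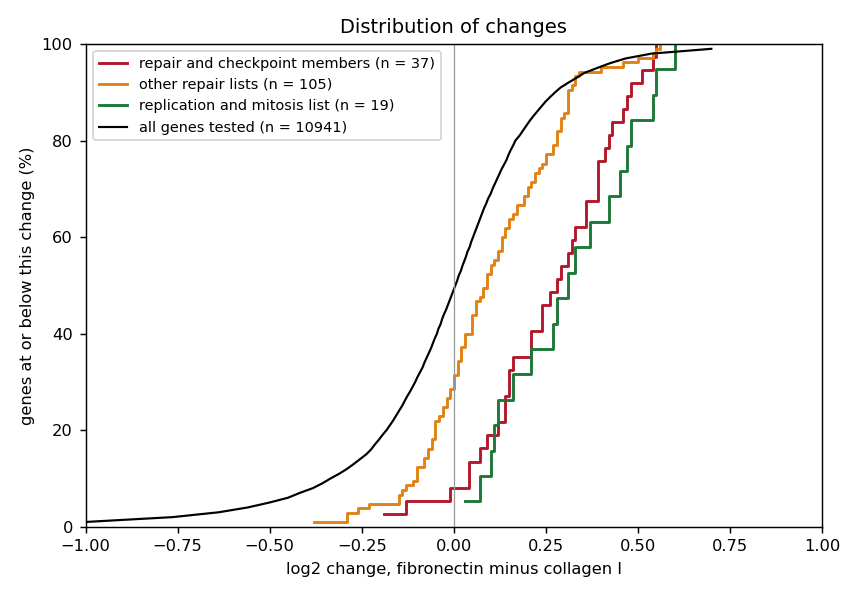
Cumulative share of genes (vertical axis, in percent) at or below a given log2 change (fibronectin minus collagen I, horizontal axis, drawn from -1 to 1), for the 37 repair and checkpoint genes (red), 105 genes of other repair lists (orange), 19 genes of replication and mitosis (green) and all 10941 genes tested (black, percentiles). The red and green curves run close together to the right of the others, with medians of 0.28 and 0.31, against 0.09 for other repair genes and 0.004 for all genes.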

How the data were processed

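Expression was measured in 6 samples of mouse muscle cells, 3 on fibronectin and 3 on collagen I. The authors deposited log2 probe set signals, made with Affymetrix Expression Console and RMA per the submitters' processing notes. RMA corrects background, normalises arrays by quantiles and summarises probes, which evens out any shift common to the majority of genes. Tool versions and array batches were not given in the sources used here, and no batch was tested. Arrays give no depth, and the number of samples limits the precision (median SE of a log2 change 0.057).

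Genes were named from the platform annotation, updated by gene identifier to assembly GRCm38.p6 (18032 of 18194 found). Probe sets with several genes (932) were not named. Each gene was represented by its brightest probe set and tested if the mean over all samples reached 2.33, the median of all 45101 probe sets. Fits used limma 3.58.1 in R 4.3.3 (lmFit, eBayes, two-sided, fibronectin minus collagen, no covariates, Benjamini-Hochberg adjustment, threshold 0.05), with 4 residual and 3.81 prior degrees of freedom, and were tested on simulated data. With 3 against 3 an exact test of a gene cannot give a p below 0.1, so none was run. Promoters came from RefSeq. Figures were drawn with matplotlib 3.10.9.

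The members and lists were chosen with earlier results of these data known. Signals in every sample are given for the 14 genes with the smallest p and the first of each remaining role group, and for Brca1, Bard1, Fanci, Mus81, Timeless and Atm, which were added after their values were seen. Of each repair, p53, cell cycle and E2F list up to 3 genes that passed were chosen by smallest p, with Mki67, Ccna2, Cdkn1a, E2f1 and Myog. Other genes of these lists and the cell type markers were named after their values were seen. The labels do not say whether equal replicate numbers pair the samples, and the samples were fitted as unpaired. Correlations of deviations from the coating mean were 0.101, -0.009 and 0.078 between equal numbers. Between different numbers they ran from -0.139 to 0.097. Such correlations over 3 samples per coating cannot exclude pairing. Alternatives were other filters, scalings, probe set summaries and variance models, the replicate block and leaving out each sample.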

Additional observations from a re-analysis of the deposited data

How the results depend on the processing

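The 24 rises became between 16 and 28 over the alternatives, with 17 without the brightness filter, 28 with samples centred on their medians and 16 at an adjusted p of 0.01, and 15 of the 24 genes kept their call under every alternative that tested them. The 0 falls became 1, Mus81, with the 75th percentile filter and with a robust variance model that follows intensity. Leaving out 1 sample gave between 17 (without collagen replicate 2) and 24 rises, between 0 and 1 falls (Mus81, without collagen replicate 2), a median log2 change between 0.25 and 0.329, and between 3 (without fibronectin replicate 3) and 6 falls in the other repair lists. The median was 0.282, 0.336 with samples centred, where the median of all genes moved to 0.058, and 0.238 with all probe sets of a gene averaged. At an adjusted p of 0.01 all genes gave 1171 rises and 1398 falls, in place of 2173 and 2211, and the other repair lists 19 and 2. A replicate block also gave 24 rises and 0 falls, since Palb2 and Bard1 passed (adjusted p = 0.0262 and 0.0311) and Fance and Nbn did not (0.0617 and 0.0556). Directions turned for Fancg after quantile normalisation again (0.0039) and with samples centred (0.04), for Fancm (-0.03) and Xrcc3 (-0.01) with probe sets averaged, and, when 1 sample was left out, for Xrcc3 without fibronectin replicate 3 (range -0.04 to 0.09) and for Atm without collagen replicate 3 (range -0.01 to 0.11). The cause of these changes was not tested. Fancg and Bard1 were dim, with mean signals of 2.7 and 3.13 over all samples. The log2 change of Bard1 was 0.33, with an SE of 0.138 and an SD of 0.31 on collagen. RMA compresses the changes of dim genes, and the part of this in the calls of Fancg and Bard1 was not tested.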
